A study of Homo sapiens with 18 samples.

Results

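The lysine methyltransferases and demethylases of PANC-1 cells were taken as the protein-coding genes on autosomes or the X chromosome whose symbol begins with KDM, KMT or SETD, the last including SETDB. The rule found 38 genes (19 KDM, 8 KMT and 11 SETD genes) among the 58302 genes of the expression table, and 1 Y-linked symbol was left out. PANC-1 is an established epithelial line from a human pancreatic ductal carcinoma. Cells with a stable lentiviral control shRNA (shCtrl) were compared with cells carrying a stable lentiviral shRNA against NAT10 (shNAT10, or NAT10-KD), the enzyme that writes N4-acetylcytidine (ac4C) on RNA. RNA-seq of poly(A) RNA with a stranded kit gave 3 libraries per group. For acRIP-seq, fragmented RNA was enriched with an antibody against ac4C, with 3 enriched (IP) and 3 input libraries per group, and the authors deposited 1 pooled list of peaks per group. Both groups come from 1 cell line, and the labels do not say which of the shRNAs against NAT10 was used. The labels name replicates without saying that they were separate cultures, so the p-values below measure only the spread between these libraries.

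Lysine methyltransferases place methyl groups on histone tails, mostly through a SET domain, and lysine demethylases remove them, KDM1 enzymes through an amine oxidase fold and the other KDM families through a Jumonji domain. Methylation of H3K4 marks promoters and enhancers, H3K36 methylation marks gene bodies, and methylation of H3K9, H3K27 and H4K20 is known from silent or compacted chromatin. Several of these enzymes also act on proteins other than histones, SETD7 among them, and several are altered in cancers of the pancreas.

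The knockdown was visible in the targeted gene. NAT10 lay at 31.6, 27.7 and 28.6 FPKM (fragments per kilobase of transcript, scaled by the library's counted reads) in the shCtrl libraries and at 7.92, 8.43 and 7.90 FPKM in the shNAT10 libraries, with no overlap. Its log2 fold change was -1.84 ± 0.08 (SE, limma on log2 of FPKM + 0.1, adjusted p = 3.85e-05). The exact two-sided permutation test over the 6 libraries gave p = 0.1, the smallest value that 3 against 3 allows. Library depth lay between 15831720 and 23521762 counted reads. Of the epithelial markers, KRT8 had a mean of 1739 FPKM in shCtrl and 766 FPKM in shNAT10 cells, and the summed level of the 6 markers KRT7, KRT8, KRT18, KRT19, EPCAM and CDH1 lay between 2792 and 3753 FPKM in shCtrl and between 1497 and 1678 FPKM in shNAT10 libraries (1 rose, EPCAM, and 4 fell). Of 8 markers of leukocytes, endothelium and fibroblasts, 6 (PTPRC, CD3E, LYZ, PECAM1, VWF and DCN) stayed under 1 FPKM in every library. The fibroblast markers COL1A1 and COL3A1 did not. COL1A1 fell from a mean of 31.1 to 19.2 FPKM, and COL3A1 rose from 0.776 to 1.96 FPKM. The summed level of the 8 lay between 29.6 and 34.6 FPKM in shCtrl and between 19.2 and 22.8 FPKM in shNAT10 libraries. The part of these shifts in the results below was not tested. In these bulk samples a lower level of an mRNA in every cell and a smaller share of cells with it cannot be told apart.

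The control libraries did not behave alike for long transcripts. In the second shCtrl library, tested genes with transcripts of 12000 bases or more had a median log2 ratio of -0.55 to the mean of the other 2 controls, against 0.29 for transcripts under 2000 bases, whereas the NAT10-KD libraries set against the same 2 controls had medians of 0.03 and -0.05 in these length classes. The members are mostly long, and 27 of the 35 tested members had their lowest control value in this library. Across the 35 tested members the log2 ratio fell with the length of the transcript (Pearson's r = -0.76 with log2 length, Spearman's rho = -0.74, a description over genes that share the same libraries). KMT2A, KMT2C and KMT2D, whose FPKM rest on lengths of 16602, 16862 and 19419 bases, lay farthest down. All 35 tested members were therefore also fitted without this library, and values from that fit are given where it changed a call or a direction.

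A gene was tested if it reached 1 FPKM in at least 3 of the 6 libraries, and called at an adjusted p under 0.05. Of the 38 members, 35 were tested. KDM4D, a testis-enriched demethylase, stayed between 0.713 and 1.21 FPKM, and KDM4E and KDM4F were listed at 0 in all 6 libraries. Of the tested members 8 were higher in NAT10-KD cells (SETD7, KDM2A, KDM2B, KDM6B, KDM3B, KDM4B, KDM5C and SETD1A), 5 were lower (KMT5C, SETD4, SETDB1, KDM4A and KDM1A) and 22 were not called. Among all 12982 tested genes, 20.8% were called higher and 21.2% lower, so the share of members called higher (22.9%) was near the background and the share called lower (14.3%) was below it. The median log2 fold change was 0.13 over the 35 members and -0.01 over all tested genes. A call makes it likely that the 3 NAT10-KD values lie outside the range of the 3 control values. How many of all called genes had such a separation was not counted. Separations given for single members below are therefore not read as a trait of the members. The count of lower members depended on the scaling. With each library rescaled to the same sum (TPM), which moved the median of all genes up by 0.11, 9 members were higher and 1 was lower, beside 3355 higher and 2075 lower genes in all against 2699 and 2751 in FPKM. Without the second shCtrl library 10 members were higher and 6 lower, since SETD5 and SETD6 were gained as higher, KDM1B and KDM6A were gained as lower, and SETD4 was lost. Without the first shCtrl library 13 were higher, without the third only 1 was lower, and without the first, the second or the third shNAT10 library 1, 2 and 1 were lower. Calls over all genes moved in these fits as well. Without the second shCtrl library 3303 genes were higher and 3318 lower, and without the first 2882 were higher. Without the third shCtrl library 1892 genes were lower, and without shNAT10 library 1, 2 or 3 it was 1831, 1897 and 1765.

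**Figure D1:**
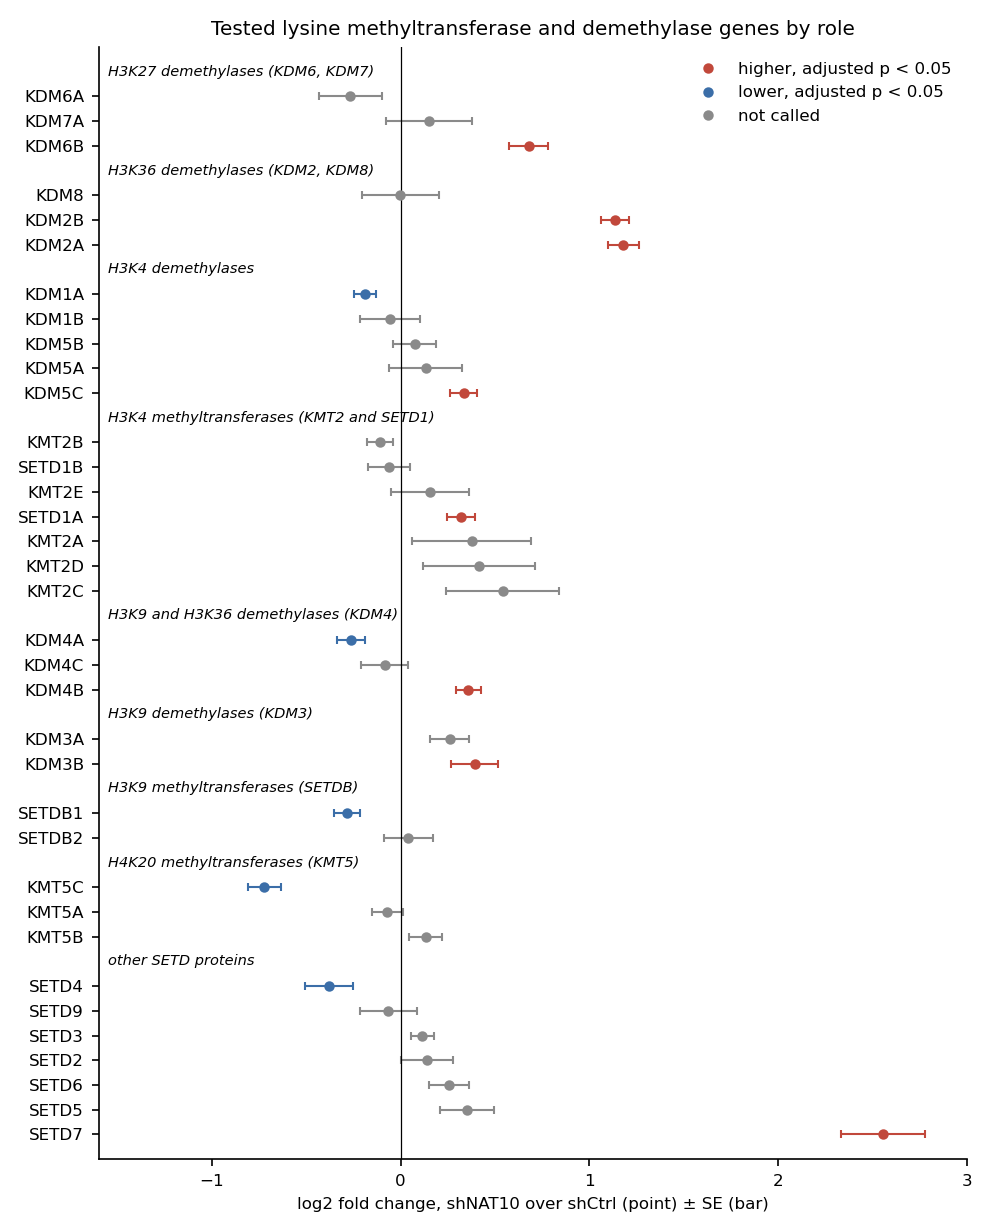
Log2 fold change of NAT10-KD over control cells (horizontal axis) for the 35 tested members, grouped by role, with bars of 1 SE from limma on 3 against 3 libraries. Red points were called higher (8), blue points lower (5) and grey points were not called (22). SETD7, KDM2A and KDM2B lie beyond 1, and the long bars belong to KMT2A, KMT2C and KMT2D.

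The 3 members SETD7, KDM2A and KDM2B were called higher with a rise of more than 1 on the log2 scale. Of all tested genes, 2.91% were called with such a rise. SETD7 (chromosome 4, 139495941 to 139606699, minus strand, GRCh38), a monomethyltransferase of H3K4 and of several non-histone proteins, lay at 4.74, 2.42 and 3.98 FPKM in the control libraries and at 21.0, 21.1 and 22.6 FPKM in the NAT10-KD libraries. The lowest NAT10-KD value was far above the highest control value, and the second control library was the lowest of all. The means were 3.71 ± 1.18 and 21.6 ± 0.922 FPKM (SD, n = 3 libraries each), and the log2 fold change was 2.56 ± 0.22 (SE, limma adjusted p = 0.000281), place 7 among the 12982 tested genes. Without the second control library it was 2.29 (limma adjusted p = 4.76e-06). SETD7 was called in every alternative fit.

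The H3K36 demethylases gave the next 2 rises. KDM2A (chromosome 11, 67119269 to 67258087), which binds unmethylated CpG islands through a CXXC zinc finger, lay at 21.3, 17.6 and 19.2 FPKM in control cells and at 44.0, 43.6 and 43.9 FPKM in NAT10-KD cells. The NAT10-KD libraries stood close together, and all were above every control library. Its log2 fold change was 1.18 ± 0.08 (SE, limma adjusted p = 0.000142). KDM2B (chromosome 12, 121429097 to 121581015), which brings a variant Polycomb complex to CpG islands, was a low gene in both groups, at 3.03, 2.99 and 3.02 FPKM in control cells and 6.80, 6.58 and 6.85 FPKM in NAT10-KD cells. It rose by nearly the same amount, 1.14 ± 0.08 on the log2 scale (SE, limma adjusted p = 0.000119). The levels of the pair differed by several times in each group while their fold changes lay within 1 SE of each other. KDM8, the remaining member of this group, lay between 0.919 and 1.38 FPKM and was not called. Both KDM2A and KDM2B were called under every alternative.

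Among the H3K27 demethylases, KDM6B (also known as JMJD3) rose from 5.77, 4.82 and 6.04 FPKM to 8.99, 9.27 and 8.45 FPKM. Every NAT10-KD library was above every control library, with a log2 fold change of 0.68 ± 0.10 (SE, limma adjusted p = 0.00239), and the call held in all alternatives. Its paralogue KDM6A (UTX), the highest of the group in control cells, had 8.25, 5.14 and 6.96 FPKM in control and 5.19, 5.79 and 5.59 FPKM in NAT10-KD cells. The groups overlapped through the second control library, and KDM6A was not called (log2 fold change -0.27 ± 0.17, limma adjusted p = 0.237). Without that library its log2 fold change was -0.45 (limma adjusted p = 0.00625). KDM7A, which acts on H3K9 and H3K27, was low, between 0.949 and 1.64 FPKM in the 6 libraries, and was not called with the second control library (0.15) or without it (-0.07).

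The KDM4 enzymes, which demethylate H3K9 and H3K36, split in direction. KDM4A (JMJD2A, chromosome 1, 43650158 to 43705515) lay at 21.5, 18.6 and 19.9 FPKM in control cells and at 16.8, 16.3 and 16.8 FPKM in NAT10-KD cells, the latter all below the former. Its means were 19.99 ± 1.42 and 16.6 ± 0.278 FPKM (SD, n = 3 libraries each) and its log2 fold change was -0.26 ± 0.07 (SE, limma adjusted p = 0.0273). Without the second control library the call was kept (-0.31, limma adjusted p = 0.00322). Without the first the limma adjusted p was 0.0559, and in TPM it was 0.257 with a log2 fold change of -0.15. Without shCtrl 3 and without shNAT10 1, 2 or 3 the limma adjusted p lay at 0.0822, 0.0804, 0.103 and 0.0852. The annotation gives 40.2% of the exon bases of KDM4A to the read-through gene AL451062.3 on the same strand as well, so that its count is uncertain. KDM4B rose from 10.8, 10.1 and 10.5 FPKM to 13.5, 13.8 and 12.9 FPKM, with no overlap (log2 fold change 0.36 ± 0.07, limma adjusted p = 0.00582). KDM4C stayed between 2.76 and 3.56 FPKM and was not called.

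The H3K4 demethylases held the most abundant member. KDM1A (LSD1), the catalytic subunit of CoREST, had 68.8, 73.7 and 70.6 FPKM in control cells, above 94.4% of the tested genes, and 61.9, 62.0 and 63.0 FPKM in NAT10-KD cells. All NAT10-KD values lay below all control values. The difference was small, -0.19 ± 0.06 on the log2 scale (SE, limma adjusted p = 0.0387), and the call was lost in TPM (limma adjusted p = 0.257) and without shCtrl 3 (0.11) or without shNAT10 1, 2 or 3 (0.128, 0.137 and 0.116, all limma adjusted). The call of KDM1A was also lost without a filter (limma adjusted p = 0.0616), without the mean-variance trend (0.0681) and with the replicate number as a block (0.0808). KDM5C, an X-linked H3K4 demethylase, rose from 22.3, 19.9 and 20.5 FPKM to 27.4, 26.1 and 25.6 FPKM (0.33 ± 0.07 on the log2 scale, limma adjusted p = 0.00977). KDM1B, KDM5A and KDM5B were not called. Without the second control library KDM1B was called lower, moving from -0.06 (limma adjusted p = 0.802) to -0.24 (limma adjusted p = 0.026). In the same fit KDM5A moved from 0.13 to -0.08 and KDM5B from 0.08 to -0.05, neither called. KDM5B, at 22.5 ± 3.37 and 23.5 ± 0.174 FPKM (SD, n = 3 libraries each), differed by less than the spread of its controls.

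Both KDM3 enzymes, demethylases of H3K9, had higher means in NAT10-KD cells, and 1 of them passed. KDM3B lay at 22.2, 15.7 and 19.96 FPKM in control and at 24.9, 24.7 and 25.7 FPKM in NAT10-KD cells, with no overlap (0.39 ± 0.12 on the log2 scale, limma adjusted p = 0.0402). Its call was lost without shCtrl 3 (limma adjusted p = 0.0799) and without shNAT10 1, 2 or 3 (0.105, 0.0992 and 0.117). The call was also lost without a filter (limma adjusted p = 0.0873) and without the mean-variance trend (0.0586). Without the second control library the log2 fold change of KDM3B was 0.25 (limma adjusted p = 0.0108). KDM3A had means of 19.0 and 22.6 FPKM and did not pass (0.26 ± 0.10, limma adjusted p = 0.0798).

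Of the 7 genes of the KMT2 and SETD1 families, grouped here as H3K4 methyltransferases, 1 was called. The group follows the symbols, and all but KMT2E are catalytic subunits of COMPASS complexes. SETD1A rose from 8.75, 8.88 and 8.001 FPKM to 10.6, 10.6 and 10.8 FPKM, with no overlap (0.32 ± 0.07 on the log2 scale, limma adjusted p = 0.0119). Without the third control library or the third NAT10-KD library its limma adjusted p was 0.0517 and 0.0548. SETD1B, its paralogue, had means of 5.68 and 5.42 FPKM and was not called. KMT2A (MLL1), the highest of the group, had 26.5, 9.93 and 17.7 FPKM in control cells and 21.9, 19.98 and 23.4 FPKM in NAT10-KD cells. The control values spread on both sides of the NAT10-KD values, and the log2 fold change was 0.38 ± 0.32 (limma adjusted p = 0.373). It was 0.00 without the second control library (limma adjusted p = 0.985) and 0.71 without the first (limma adjusted p = 0.0432). The annotation places 17.9% of the exon bases of KMT2A in AP001267.5 on the same strand too, so this count is also uncertain. KMT2C had 6.10, 2.43 and 4.55 FPKM in control and 5.94, 5.53 and 6.51 FPKM in NAT10-KD cells, and KMT2D 13.3, 5.28 and 8.56 FPKM against 11.6, 10.4 and 11.9 FPKM. Their log2 fold changes of 0.54 and 0.42 dropped to 0.18 and 0.08 without the second control library. Neither was called in either fit. KMT2B and KMT2E were not called, and KMT2E moved from 0.15 to -0.08 without the second control library.

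The methyltransferases of H4K20 and H3K9 gave 2 falls. KMT5C (SUV420H2), which places the di- and trimethyl marks of H4K20 at heterochromatin, fell from 11.2, 12.3 and 10.5 FPKM to 6.73, 7.13 and 6.57 FPKM. The 2 sets were far apart, and the log2 fold change of -0.72 ± 0.09 (SE, limma adjusted p = 0.000894) was the largest fall among the members. KMT5C was the only member of the 5 called lower that kept its call in TPM and in every fit with a library left out. KMT5A, the H4K20 monomethyltransferase, and KMT5B, the paralogue of KMT5C, were not called, with means of 14.2 and 13.5 FPKM for the former and 12.7 and 13.95 FPKM for the latter. SETDB1, which places H3K9 trimethylation at repeats and at zinc finger gene clusters, fell from 14.9, 14.8 and 14.6 FPKM to 11.9, 12.8 and 11.6 FPKM, with no overlap (-0.29 ± 0.07 on the log2 scale, limma adjusted p = 0.0147). Its call was lost in TPM (limma adjusted p = 0.106), without shCtrl 3 (0.0506) and without shNAT10 1 or 3 (0.0634 and 0.0704). Of its exon bases, 13.4% lie in CERS2 on the opposite strand, and whether the counting used the strand is not given in the sources used here. SETDB2 was low, between 1.68 and 1.99 FPKM, and was not called with the second control library (0.04) or without it (-0.03).

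Of the 7 other SETD genes, SETD7 rose as above, SETD4 fell and 5 were not called. SETD4, a low gene, had 2.54, 3.26 and 3.00 FPKM in control and 2.14, 2.20 and 2.32 FPKM in NAT10-KD cells (-0.38 ± 0.13 on the log2 scale, limma adjusted p = 0.0478). It was the least stable call, lost in 10 of 15 alternative fits. These include the fits without shCtrl 2, shCtrl 3, shNAT10 1, shNAT10 2 and shNAT10 3, with limma adjusted p of 0.0834, 0.134, 0.132, 0.123 and 0.0975. SETD5, a chromatin factor altered in intellectual disability and the highest of the group, had 29.8, 19.96 and 26.4 FPKM in control and 30.9, 32.1 and 32.9 FPKM in NAT10-KD cells. The groups did not overlap, but SETD5 did not pass (0.35 ± 0.14 on the log2 scale, limma adjusted p = 0.0844). It passed without the second control library (0.19, limma adjusted p = 0.0452) and without the first (0.48, limma adjusted p = 0.021). SETD2, which trimethylates H3K36, had means of 15.2 and 16.6 FPKM and a log2 fold change of 0.14 ± 0.14, which was -0.01 without the second control library and was called in neither fit. SETD3, the actin histidine methyltransferase, SETD6 and SETD9 were not called. SETD6, at 4.395, 4.43 and 3.61 FPKM in control and 5.20, 4.81 and 4.86 FPKM in NAT10-KD cells, had no overlap and moved from 0.26 (limma adjusted p = 0.0901) to a call of 0.31 without the second control library (limma adjusted p = 0.0417). The 19 methyltransferases (KMT and SETD) thus had 2 rises, 3 falls and a median log2 fold change of 0.13, and the 16 tested demethylases 6 rises, 2 falls and a median of 0.14. Whether these 2 classes differ was not tested.

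Genes that work with these enzymes were counted in the same fit. Of all 12982 tested genes, 20.8% were called higher and 21.2% lower in it. Of 16 tested other lysine methyltransferases, 7 rose, 1 fell and 8 were not called, with a median log2 fold change of 0.17. The largest rise was SUV39H2, which trimethylates H3K9, from a mean of 4.47 to 7.999 FPKM (0.83 ± 0.09, limma adjusted p = 0.0006). The fall was EHMT2 (G9a), an H3K9 dimethyltransferase, from 26.1 to 18.2 FPKM (-0.51 ± 0.08, limma adjusted p = 0.00338). None of 6 tested other lysine demethylases was called. Of 15 COMPASS partners, 3 rose and 3 fell, led by BOD1 (45.2 to 77.0 FPKM, 0.77 ± 0.08, limma adjusted p = 0.000475) and ASH2L, a core subunit of all COMPASS complexes (10.9 to 6.07 FPKM, -0.84 ± 0.08, limma adjusted p = 0.000327). Of 8 CoREST partners of KDM1A, 4 rose and none fell, led by GSE1 (13.6 to 23.2 FPKM, 0.77 ± 0.08, limma adjusted p = 0.000484). Of 9 genes for core and accessory subunits of the Polycomb complex PRC2, 7 rose and 2 fell. EZH1 and EZH2 were counted among the other lysine methyltransferases instead. The largest changes were those of JARID2, an accessory subunit (4.06 to 6.96 FPKM, 0.77 ± 0.11, limma adjusted p = 0.00174), and EED, a core subunit (13.8 to 8.08 FPKM, -0.76 ± 0.08, limma adjusted p = 0.00052). The lists were not tested as sets.

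Of the 35 members with a mean of at least 1 FPKM in control cells, 27 carried an ac4C peak in the control list. In the NAT10-KD list 23 of the 35 did. These shares, 77.1% and 65.7%, stand beside 55.6% and 53.9% of all 10986 protein-coding genes expressed at this level. Peak calls depend on expression and on length. Among expressed genes with transcripts of 8000 bases or more, 73.3% carried a control peak and 71.2% a NAT10-KD peak, and 9 and 7 of the 10 members of this length did. Between 5000 and 8000 bases the shares were 65.8% and 63.7% of genes, and 10 and 8 of 13 members. Between 3000 and 5000 bases they were 58.0% and 56.4%, and 7 and 6 of 8 members. Under 3000 bases they were 43.7% and 42.0%, and 1 and 2 of 4 members. By mean control FPKM, genes from 1 to 5 had 39.8% and 38.3%, and 6 and 6 of 9 members. From 5 to 20 FPKM it was 57.7% and 55.9%, and 16 and 12 of 21. From 20 to 100 FPKM it was 70.2% and 67.9%, and 5 and 5 of 5. How far length or expression account for the difference was not tested. A peak in both lists was found for 20 members, in the control list alone for 7 (SETD2, KMT2A, SETD1B, KDM6B, KDM4B, KDM6A and SETD4) and in the NAT10-KD list alone for 3 (KMT2B, KMT5C and SETDB2). In this order these were 57.1%, 20% and 8.57% of the 35 members, beside 38.6%, 17.1% and 15.3% of all expressed protein-coding genes. The share with a control peak alone was thus near the background. No peak was listed on SETD1A, KMT5B, KDM8, SETD6 and SETD9 or on the 3 genes below the filter. Since each group has 1 pooled list, no replicate error can be given for any peak count, and the lists were not tested against each other.

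The members carried 76 of the 16892 control peaks and 61 of the 15813 NAT10-KD peaks. The most control peaks lay on KMT2D (7), KDM2A, KDM4A and SETD7 (6 each) and SETD5 (5). The most NAT10-KD peaks lay on SETD5 (6), KDM5B and KMT2C (5 each) and on KDM1A, KDM2A, KDM5A and KMT2E (4 each). SETD2 went from 4 to 0, KDM4A from 6 to 2, KMT2D from 7 to 3 and SETD7 from 6 to 3, while KDM5A went from 1 to 4 and KDM5B from 2 to 5. SETD7 had fewer listed peaks at a higher mRNA level, and KDM1A had more (2 to 4) at a slightly lower one. Only 11 of the 76 control peaks of members overlapped a NAT10-KD peak by at least 1 base (14.5%), and 11 of the 61 NAT10-KD peaks did so in return (18.0%), beside 25.5% and 27.2% of all peaks. The shared peaks lay on SETD7 and KDM4A (2 each) and on KDM1A, KDM2A, KDM2B, KDM5B, KMT2E, SETD3 and SETD5 (1 each).

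By midpoint on a coding transcript of the gene, 46 of 67 placed control peaks (68.7%) and 35 of 51 placed NAT10-KD peaks (68.6%) of members lay in the CDS, beside 60.3% and 60.1% of the placed peaks on all protein-coding genes. The 3′ UTR held 20 and 15 of the member peaks, and the 5′ UTR 1 each. The CDS made up 67.4% of the summed transcript length of the members with peaks. The remaining 9 control and 10 NAT10-KD peaks had their midpoint off the exons of that transcript. The deposited enrichment (IP signal divided by input signal) had a median of 43.9 over the control peaks of members and 34.4 over their NAT10-KD peaks, beside 49.3 and 45.2 over each whole list. The highest control values were 4810 on SETD7, 1910 on SETD4, 1270 on KDM7A, and 1060 and 793 on KDM2B. The highest NAT10-KD values were 2780 on KDM5B, 2200 on KDM1A, 1920 on KDM7A, 620 on SETDB2 and 457 on KDM2B. SETD7, SETD4, KDM7A and KDM2B had control means of 3.71, 2.93, 1.35 and 3.02 FPKM. In NAT10-KD cells KDM7A, SETDB2 and KDM2B had means of 1.48, 1.93 and 6.75 FPKM, and KDM5B and KDM1A 23.5 and 62.3 FPKM. A ratio of IP to input can be high because the input is near 0, which was not tested. The read numbers behind the peaks are not in the lists, so these ratios carry no error here and do not rank ac4C levels.

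SETD7 and KDM4A show how the peaks sat on their transcripts. On the SETD7 transcript of 7365 bases, with its CDS from base 638 to 1735, the control list held 3 peaks with midpoints in the CDS (fold enrichment 54.0, 10.2 and 4810) and 3 in the 3′ UTR (139, 3.96 and 123). The NAT10-KD list held no CDS peak and 3 peaks in the 3′ UTR (2.30, 34.4 and 4.25), the first 2 of which overlapped control peaks of 3.96 and 123. On the KDM4A transcript of 4474 bases, with its CDS from base 135 to 3326, the control list held 5 CDS peaks (5.53, 35.1, 44.0, 38.8 and 43.1) and 1 in the 3′ UTR (43.7). The NAT10-KD list held 2 CDS peaks, 1 from base 293 to 652 (117) and 1 from base 1112 to 1351 (21.8), both of which overlapped a control peak, and none beyond that. KDM6B had 2 control peaks in the CDS (195 and 6.48), and SETD2 had 4 control peaks, 3 in the CDS and 1 in the 3′ UTR. Both had no NAT10-KD peak. Their mRNAs were at 8.90 and 16.6 FPKM in NAT10-KD cells, above the control means of 5.54 and 15.2 FPKM, with the difference called for KDM6B and not for SETD2.

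**Figure D2:**
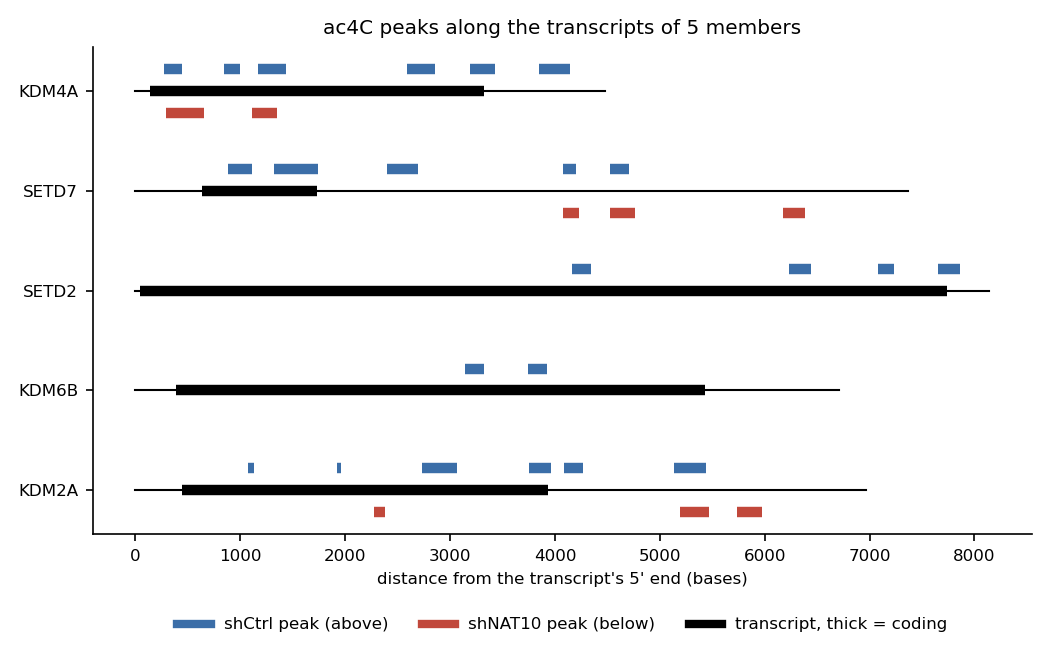
Position of ac4C peaks along the transcripts of KDM4A, SETD7, SETD2, KDM6B and KDM2A (horizontal axis, bases from the 5′ end of the transcript), with shCtrl peaks above and shNAT10 peaks below each transcript and the CDS drawn thick. A bar spans the part of a peak that lies on the transcript. SETD7 has 3 NAT10-KD peaks in the 3′ UTR only, KDM4A 2 in the CDS, and SETD2 and KDM6B none.

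The sequences of 7 peaks that lie wholly in a CDS are given below, spliced, 5′ to 3′ on the RNA strand and written as DNA, from GENCODE v29 transcripts on GRCh38. They were chosen as CDS peaks of KDM4A that were kept or not listed after knockdown, and a KDM6B peak of the control list alone. The CDS peaks of SETD4 and KDM7A with the highest ratio of IP to input were added. Capitals mark each CNNCNNCNNCNN (a C followed by any 2 bases, 4 times in a row, searched on the RNA strand only), a repeat of the kind that has been linked to ac4C.
KDM4A control peak 2: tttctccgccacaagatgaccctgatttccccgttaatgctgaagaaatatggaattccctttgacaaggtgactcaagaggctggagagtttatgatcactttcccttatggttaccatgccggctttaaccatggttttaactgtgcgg
KDM4A control peak 3: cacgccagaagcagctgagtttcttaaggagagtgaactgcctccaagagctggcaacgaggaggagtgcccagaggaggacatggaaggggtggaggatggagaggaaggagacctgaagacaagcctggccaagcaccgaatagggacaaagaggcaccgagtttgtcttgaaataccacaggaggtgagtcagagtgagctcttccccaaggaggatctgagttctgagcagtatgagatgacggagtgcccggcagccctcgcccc
KDM4A NAT10-KD peak 2: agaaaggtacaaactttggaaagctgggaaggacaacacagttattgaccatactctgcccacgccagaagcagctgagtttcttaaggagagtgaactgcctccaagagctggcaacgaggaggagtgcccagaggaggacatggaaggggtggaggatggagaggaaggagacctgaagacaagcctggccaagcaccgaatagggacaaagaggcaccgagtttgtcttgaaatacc
KDM4A control peak 4: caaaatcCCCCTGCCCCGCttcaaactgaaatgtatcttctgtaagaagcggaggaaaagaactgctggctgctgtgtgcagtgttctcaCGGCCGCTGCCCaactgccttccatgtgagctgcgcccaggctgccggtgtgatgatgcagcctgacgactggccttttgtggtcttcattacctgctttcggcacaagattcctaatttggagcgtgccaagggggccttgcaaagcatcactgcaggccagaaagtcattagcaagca
SETD4 control peak: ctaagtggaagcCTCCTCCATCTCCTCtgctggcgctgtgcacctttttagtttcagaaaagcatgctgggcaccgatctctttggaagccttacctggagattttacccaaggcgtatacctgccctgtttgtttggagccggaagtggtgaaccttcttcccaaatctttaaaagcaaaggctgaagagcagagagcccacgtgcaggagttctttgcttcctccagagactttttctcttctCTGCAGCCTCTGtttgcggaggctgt
KDM7A NAT10-KD peak: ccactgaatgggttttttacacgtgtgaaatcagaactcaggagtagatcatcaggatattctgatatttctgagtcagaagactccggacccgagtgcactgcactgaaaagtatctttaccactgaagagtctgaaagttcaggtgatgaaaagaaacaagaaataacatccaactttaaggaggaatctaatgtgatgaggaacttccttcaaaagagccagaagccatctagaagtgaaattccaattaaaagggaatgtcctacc
KDM6B control peak 1: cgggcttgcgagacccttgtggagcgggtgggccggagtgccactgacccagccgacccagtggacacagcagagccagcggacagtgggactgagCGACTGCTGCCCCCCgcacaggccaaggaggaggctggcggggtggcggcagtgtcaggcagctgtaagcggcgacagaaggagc

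The KDM4A peaks span chr1:43666487-43667035 (control peak 2, 151 spliced bases), chr1:43667894-43669243 (control peak 3, 270 bases), chr1:43667834-43669153 (NAT10-KD peak 2, 240 bases) and chr1:43694075-43697898 (control peak 4, 270 bases), all on the plus strand. Control peak 3 and NAT10-KD peak 2 share most of their bases, and neither holds the repeat. Control peak 2 does not hold it either, while control peak 4 holds it at 2 starts. The SETD4 peak lies at chr21:36045745-36048311 on the minus strand (271 bases, fold enrichment 1910) with 3 starts of the repeat, the KDM7A peak at chr7:140096751-140098888 on the minus strand (270 bases, 1920) with none, and the KDM6B peak at chr17:7849043-7849223 on the plus strand (181 bases, 195) with 2. Of windows of 270 bases laid end to end over the CDS of 10983 expressed protein-coding genes, 65.4% held the repeat, as did 54.3% of windows of 181 bases and 49.2% of windows of 151 bases. Of the member peaks that lie wholly in a CDS, 21 of 31 in the control list and 12 of 25 in the NAT10-KD list held it. C made up 26.7% and 22.8% of their bases, beside 25.6% of all CDS bases. These are matches of letters, and whether the 2 lists differ in them was not tested.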

How the data were processed

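RNA-seq was made from 3 shCtrl and 3 shNAT10 libraries of PANC-1 cells, grouped by their labels, and acRIP-seq from 3 IP and 3 input libraries per group. The authors deposited FPKM values per gene for each RNA-seq library. The labels list HISAT2, HTSeq 0.11.0 and DESeq2 1.22.2 with the builds hg38 and GRCh38, without a role for each. For acRIP-seq the authors deposited 1 peak list per group, in which the fold is a ratio of IP to input signal and the score is the log10 of the peak's p-value. The peak caller is not given in the sources used here. Input and IP libraries were not analysed on their own.

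The members and lists were chosen with earlier results of these data known. Members were matched by Ensembl identifier and symbol in GENCODE v29 (GRCh38), which holds 58039 of the 58302 genes. Library depth was recovered from the steps of the FPKM values: with the length of the longest annotated transcript, 28721 of 29695 genes above 0 gave whole reads in all 6 libraries (tolerance 0.0001 reads and a relative part for large counts). Other genes were given another length that did so, and the recovered reads of each library summed to slightly more than its depth.

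log2(FPKM + 0.1) of the 12982 genes with at least 1 FPKM in 3 libraries was fitted with limma 3.58.1 (R 4.3.3, mean-variance trend, two-sided), with Benjamini-Hochberg adjustment over all of them and a threshold of 0.05. A fold change on this scale understates that of low genes. The fit was tested on simulated data with known fold changes. Members named are KDM4A, SETD7, the called members with the largest changes and no overlap, and the highest of each role group, with the partner genes of the largest called rise and fall. KDM8, KDM7A, SETD2, SETD5 and other members are named beside them to account for all. Peaks were placed by midpoint on the longest transcript whose CDS is at least 90% of the longest CDS, and peaks of the same gene sharing 1 base were counted as overlapping (Python 3.11.15, pandas 2.3.3, SciPy 1.17.1). Peak starts are counted from 0 in the lists and from 1 here. Alternatives were another pseudocount, filter, scaling, variance model or read-based fit, the replicate number as a block, each library left out, and stricter peaks. Correction for length and GC content was chosen after seeing the data.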

Additional observations from a re-analysis of the deposited data

How the results depend on the processing

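NAT10, SETD7, KDM2A, KDM2B, KDM6B, KDM4B, KDM5C and KMT5C kept their direction and their call in all 16 alternatives each. Of 179 fits of the named members and NAT10 with all libraries, 163 kept direction and side of the threshold, 13 lost and 2 gained a call, and 1 changed sign, KMT5A in TPM (from -0.07 to 0.0371, not called in either). With 1 library left out, 81 of 108 kept both, 23 lost and 4 gained a call. The count of higher members lay between 6 and 13 with 1 library left out (13 without shCtrl 1). The count of lower members lay between 1 and 6, and was 3 without a filter and 1 in TPM. Over all tested genes, the counts with 1 library left out lay between 1774 and 3303 higher and between 1765 and 3318 lower. Without a filter 2330 of 29695 genes were lower. After correction for length and GC content, chosen after seeing the data, 11 members were higher and 7 lower. In that fit 3478 of 11019 genes were higher and 3260 lower. Whether the replicate numbers pair the samples could not be settled, since each deviation was taken from a mean of only 3 libraries. Same-numbered deviations correlated at -0.04, 0.06 and 0.11 for numbers 1, 2 and 3, and the other pairs between -0.12 and 0.06. Libraries numbered 2 and 3 correlated best with their own number, and those numbered 1 did not. With the replicate number as a block, 8 members were higher and 3 lower (KDM1A and SETD4 lost their calls). Of all tested genes 2524 were higher and 2603 lower with this block. Members with a peak in both lists fell from 20 to 11 in the upper 50% of each list by enrichment and to 13 among the 50% with the lowest p-values. Shorter lists lower this count for any genes. The share of members went from 57.1% to 31.4% and 37.1%, and that of all expressed genes from 38.6% to 16.9% and 21.4%. Control peaks of members overlapping a NAT10-KD peak fell from 11 to 5 with a reciprocal overlap of 50% and to 1 in the upper 50% by enrichment, where fewer peaks are compared. Their share went from 14.5% to 6.58% and 2.94%, beside 25.5%, 12.7% and 17.1% of all control peaks. The cause was not tested in the other cases.

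The 3 libraries per group limit the precision of small changes such as those of KDM1A and KDM4A, and low members such as KDM7A and KDM8 rest on few reads. The peak lists hold no reads per library, so no interval can be given for a peak or for its absence.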
